A study of Homo sapiens with 12 samples.

Results

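Cancer-testis antigens are proteins whose genes are normally read in the germ cells of the testis and, in some families, the placenta, and which tumours of many tissues read again. The members described here are the 71 genes, of 60664 gene identifiers in the table, whose symbol starts with MAGEA, MAGEB, MAGEC, GAGE, PAGE, XAGE, SSX, CSAG or CT45A followed by a digit, and all were kept whatever their level. Of these, 70 lie on chromosome X in 9 families: 13 GAGE, 12 MAGEA, 11 MAGEB, 9 CT45A, 8 SSX, 6 PAGE, 5 XAGE, 3 MAGEC and 3 CSAG genes. SSX2IP, which encodes a partner protein of SSX2 and lies on chromosome 1, entered by the letters of its symbol and is not counted in the SSX family.

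RNA was measured in MHCC-97H and Huh-7, established lines of human hepatocellular carcinoma, after transfection of small interfering RNA. CENPU encodes a subunit of the centromere complex that holds the kinetochore on the chromosome. The 4 groups of 3 libraries were MHCC-97H with si-CENPU, MHCC-97H with the control si-NC, Huh-7 with si-CENPU and Huh-7 with si-NC. All were labelled wild type, each line is a single cell line standing for its tumour, and the labels do not say whether a group's replicates were grown separately. The p-values below therefore cover only the spread among these libraries, part of which may be technical. In bulk RNA, fewer cells with a transcript and less of it in each cell cannot be told apart.

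Genes of these families are held silent in most body cells by methylation of CG dinucleotides in their promoters and by repressive histone marks, and they are known to switch on when a tumour loses that methylation. Many arose by recent duplication on chromosome X, so that copies within GAGE, CT45A or the MAGEA3 and MAGEA6 pair differ in few bases. Type I MAGE proteins, those of MAGEA, MAGEB and MAGEC, bind RING ubiquitin ligases, among them TRIM28, and steer what those ligases mark.

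The promoters of 6 members are shown: 4 of abundant members of MHCC-97H from different groups of near-identical copies, 1 of a silent relative and 1 of the member found in Huh-7. MAGEA1, which was slightly above MAGEA6 in MHCC-97H, has no entry in the RefSeq table, so MAGEA6 stands for the MAGEA family. GAGE12B, which averaged 14.1 TPM in MHCC-97H, was also passed over, because its RefSeq and GENCODE starts lie over 5000 bases apart. Each promoter shown runs from 250 bases before to 50 bases after the start of the gene in RefSeq (GRCh38.p14), 5′ to 3′ on the gene's own strand. CG dinucleotides, the sites that methylation acts on, are in capitals. The promoters lie at chrX:49570147-49570446 on the plus strand (GAGE12G), chrX:49695935-49696234 on the minus strand (PAGE1), chrX:52368771-52369070 on the plus strand (XAGE2), chrX:152769640-152769939 on the minus strand (MAGEA6), chrX:152733507-152733806 on the plus strand (MAGEA12) and chrX:30215313-30215612 on the plus strand (MAGEB2). MAGEA12 is the member of the MAGEA family at 0 that lies nearest to MAGEA6, and MAGEB2 was added after its values were seen.
GAGE12G: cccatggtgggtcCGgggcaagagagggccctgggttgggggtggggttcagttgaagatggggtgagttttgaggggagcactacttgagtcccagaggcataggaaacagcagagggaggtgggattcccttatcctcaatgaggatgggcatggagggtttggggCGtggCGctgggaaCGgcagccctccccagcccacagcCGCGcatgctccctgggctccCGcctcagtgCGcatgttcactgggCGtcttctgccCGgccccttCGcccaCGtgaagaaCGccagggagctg
PAGE1: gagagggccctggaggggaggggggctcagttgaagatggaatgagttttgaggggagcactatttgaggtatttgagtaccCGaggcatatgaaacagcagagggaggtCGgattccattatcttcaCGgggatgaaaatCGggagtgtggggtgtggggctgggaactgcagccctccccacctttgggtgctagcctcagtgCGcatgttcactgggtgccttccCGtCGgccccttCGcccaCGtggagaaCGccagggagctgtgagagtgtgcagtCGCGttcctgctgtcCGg
XAGE2: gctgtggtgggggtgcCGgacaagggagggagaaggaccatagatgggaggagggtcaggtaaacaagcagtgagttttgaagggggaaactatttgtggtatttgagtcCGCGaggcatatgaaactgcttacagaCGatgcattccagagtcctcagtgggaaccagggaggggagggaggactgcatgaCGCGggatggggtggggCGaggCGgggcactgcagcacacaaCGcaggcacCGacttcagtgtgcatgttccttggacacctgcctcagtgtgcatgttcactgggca
MAGEA6: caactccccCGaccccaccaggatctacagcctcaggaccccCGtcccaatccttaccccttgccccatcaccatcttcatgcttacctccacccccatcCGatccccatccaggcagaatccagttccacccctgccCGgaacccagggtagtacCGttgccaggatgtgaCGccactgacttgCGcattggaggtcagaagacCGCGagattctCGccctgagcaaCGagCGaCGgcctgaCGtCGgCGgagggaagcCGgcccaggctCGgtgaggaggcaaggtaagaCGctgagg
MAGEA12: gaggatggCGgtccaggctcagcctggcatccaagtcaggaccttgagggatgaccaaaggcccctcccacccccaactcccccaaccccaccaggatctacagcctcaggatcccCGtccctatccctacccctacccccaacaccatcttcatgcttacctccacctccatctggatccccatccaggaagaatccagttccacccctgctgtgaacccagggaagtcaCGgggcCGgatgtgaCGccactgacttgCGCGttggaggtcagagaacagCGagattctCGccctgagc
MAGEB2: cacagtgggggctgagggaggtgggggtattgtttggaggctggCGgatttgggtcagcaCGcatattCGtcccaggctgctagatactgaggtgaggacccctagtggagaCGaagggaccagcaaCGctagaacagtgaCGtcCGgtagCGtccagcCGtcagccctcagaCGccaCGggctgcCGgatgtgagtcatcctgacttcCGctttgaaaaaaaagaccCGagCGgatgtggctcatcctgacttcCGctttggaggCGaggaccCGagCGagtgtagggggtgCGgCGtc

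The targeted gene was checked first. CENPU was at 0.22, 0.45 and 0.24 TPM in MHCC-97H with si-CENPU, against 1.17, 0.83 and 0.89 TPM with si-NC. In Huh-7 it was at 0.17, 0.11 and 0.45 TPM with si-CENPU, against 0.56, 0.84 and 0.53 TPM with si-NC. The lowest control stood above the highest si-CENPU library in both lines. Of all genes above 0 in any library, 2.7% were lower in all in this way in MHCC-97H and 2.31% in Huh-7. With a mean below 1 TPM, CENPU did not enter the main test described below. TPM expresses each gene as a share of all transcripts after scaling for gene length, and each library sums to between 998416 and 999065, so read depth is not known. Between 18639 and 20900 identifiers were above 0 per library. The Huh-7 si-NC replicate 1 library held the fewest of them and the lowest share of mitochondrial transcripts, 1.56% against 2.28% to 6.30% in the other 11. It enters the si-NC comparison of the lines. Without it, 13 of the 14 members that passed the filter were called there, where 7685 of 11136 genes were called. Members at 0 in Huh-7 differ whichever of its libraries is left out, so this is a description.

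Hepatocyte markers were abundant in Huh-7 and near 0 in MHCC-97H, although both carry a hepatoma label. The summed level of 12 hepatocyte markers was 0.71 to 1.87 TPM over the 6 MHCC-97H libraries, against 6418 to 7417 TPM over the 6 Huh-7 libraries. Of 5 trophoblast markers, only 2 averaged at least 1 TPM in MHCC-97H and none did in Huh-7. KRT7 averaged 566 TPM in MHCC-97H and 0.172 TPM in Huh-7, and CGA averaged 8.94 TPM in MHCC-97H and 0.172 TPM in Huh-7. The rest, CGB3, PSG1 and GATA3, were below 1 TPM on average in both lines, so no cell type is read from this list. Of 10 germ cell markers, 9 were at 0 in all 6 MHCC-97H libraries, where their sum reached at most 0.02 TPM, against 0.66 to 2.26 TPM in Huh-7. The part of these marker differences in the levels below was not tested. Some genes that every dividing cell uses were listed near 0 in Huh-7, among them DNMT1 at 0.120 TPM and HDAC1 at 0.0167 TPM, so a 0 in that line can be a failed estimate and is reported as listed.

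In MHCC-97H, 17 of the 71 members reached a group mean of 1 TPM, against 1 member, MAGEB2, in Huh-7. The sum of the 9 families was 686 ± 34.1 TPM in MHCC-97H with si-CENPU, 721 ± 65.2 TPM in MHCC-97H with si-NC, 3.23 ± 0.422 TPM in Huh-7 with si-CENPU and 3.63 ± 0.286 TPM in Huh-7 with si-NC (SD, n = 3 each). As a share of all transcripts, the families made up 0.0649% to 0.0774% of TPM in MHCC-97H libraries and 0.000292% to 0.000394% in Huh-7 libraries. Across the members, 32 were listed at 0 in all 6 MHCC-97H libraries and 15 were above 0 in all 6. In Huh-7, 54 were listed at 0 in all 6 and 3 were above 0 in all 6. Of the 71 members, 25 were listed at 0 in all 12 libraries.

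**Figure D1:**
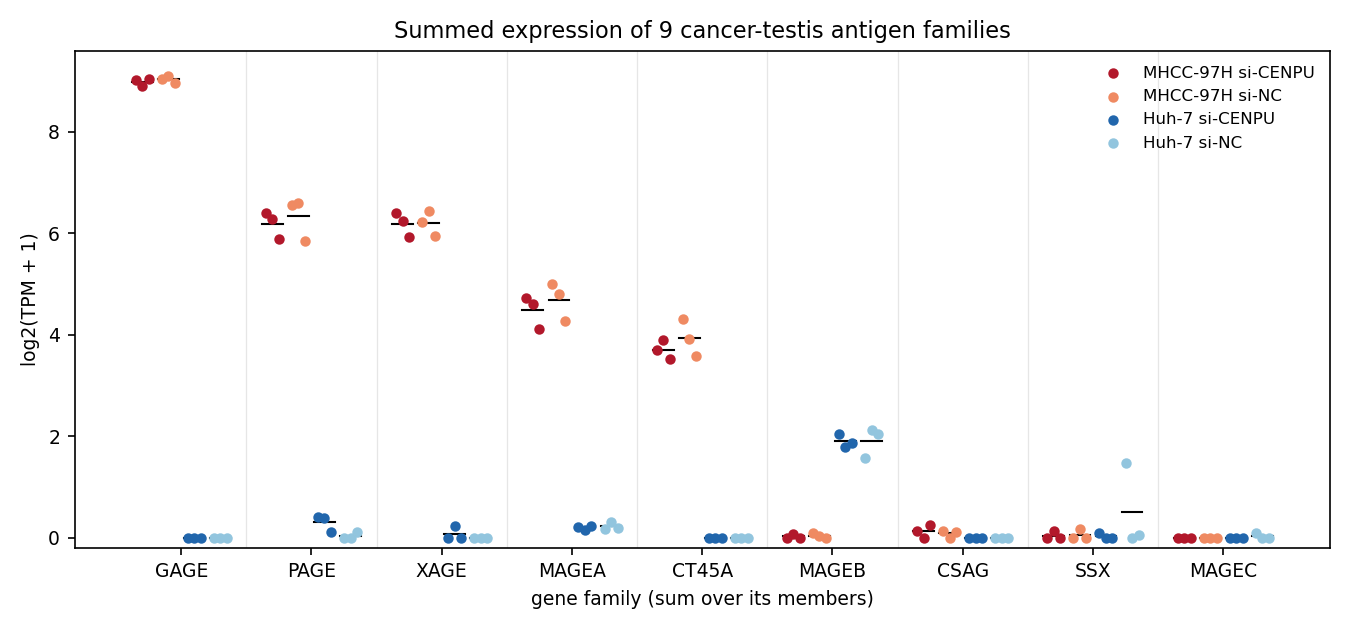
Log2 of the summed TPM of each family plus 1 (y axis) by family (x axis), with 1 point per library and a bar at the mean of each group of 3. GAGE, PAGE, XAGE, MAGEA and CT45A sit high in both MHCC-97H groups, MAGEB sits high in both Huh-7 groups, and CSAG and MAGEC sit near 0 in all 4 groups.

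GAGE was the most abundant family. Its summed level was 521.71, 476.67 and 523.20 TPM in MHCC-97H with si-CENPU, against 523.67, 550.07 and 500.97 TPM with si-NC, and it was listed at 0 in all 6 Huh-7 libraries. The GAGE sum was 70.6% to 78.3% of the sum of the 9 families across the MHCC-97H libraries. GAGE12G, of a family of small proteins of unsettled function that were first found as antigens on melanoma, was at 334.61, 264.00 and 315.88 TPM with si-CENPU and at 286.56, 321.39 and 289.22 TPM with si-NC in MHCC-97H. GAGE12H was at 179.72, 178.25 and 198.70 TPM with si-CENPU and at 189.57, 220.23 and 180.78 TPM with si-NC. The groups overlapped for both, and both were listed at 0 in every Huh-7 library. GAGE12G ranked 375th and GAGE12H 544th of the protein-coding genes of MHCC-97H by mean TPM.

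The copies of GAGE must be read together. The coding sequences of GAGE12G and GAGE12H are 99.4% identical, and 11 of the 13 GAGE genes fall in 1 group in which each copy is at least 95% identical to another. In that group 5 of 55 pairs, all with GAGE10, lie below the limit, at 94.59% to 94.87%. GAGE12G and GAGE12H together held 90.9% to 98.6% of the GAGE sum, while GAGE12D, whose coding sequence is 99.7% identical to that of GAGE12G, was listed at 0 in all 12 libraries. The summed level of the 11 copies varied with a CV of 7.10% over the 6 MHCC-97H libraries. GAGE12B was at 0, 24.59 and 0 TPM with si-CENPU and at 38.48, 0 and 21.59 TPM with si-NC. Its annotated exon in GENCODE 29 is short, with 20 coding bases, so its identity to the other copies could not be measured, and it was listed at 0 in 3 of the 6 libraries. GAGE2A, GAGE2E, GAGE12E and GAGE12F stayed at or below 5.18 TPM in all libraries.

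**Figure D2:**
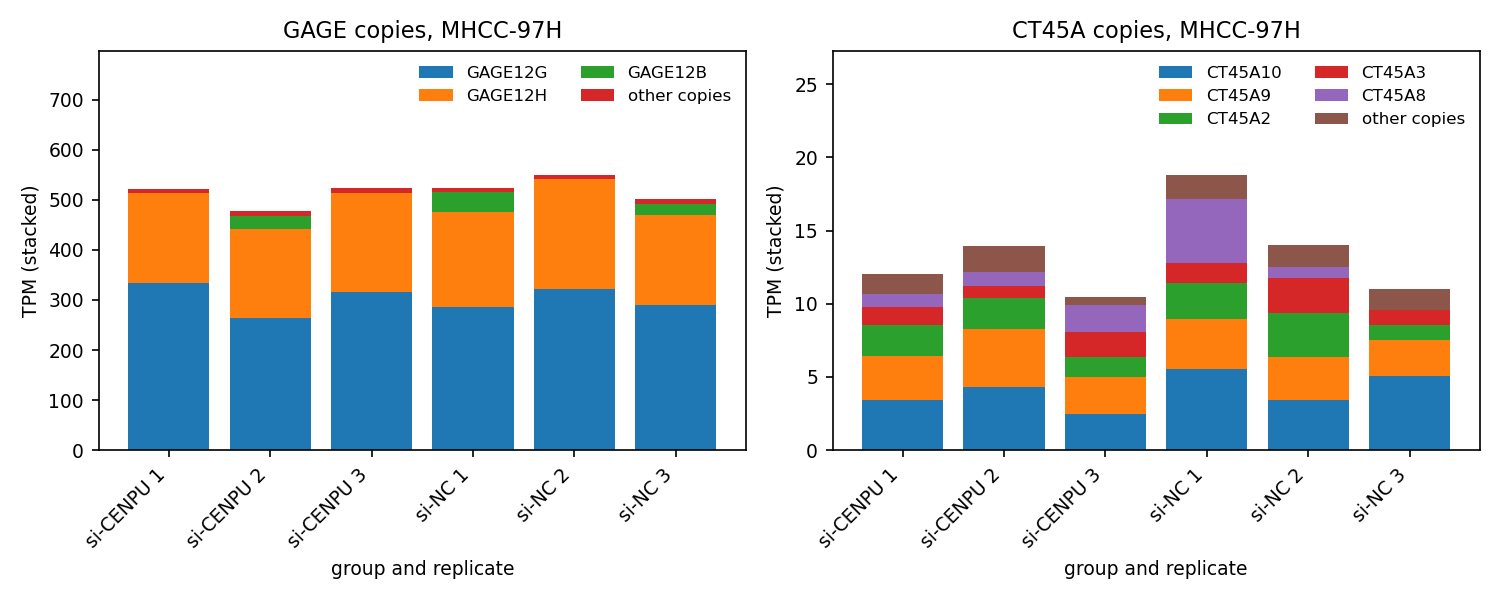
Stacked TPM (y axis) of the GAGE copies at left and the CT45A copies at right, for each MHCC-97H library (x axis: si-CENPU replicates 1 to 3, then si-NC replicates 1 to 3). GAGE12G and GAGE12H fill most of every GAGE bar, GAGE12B appears in 3 of the 6, and the CT45A bars are divided among several copies in changing parts.

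PAGE1 and XAGE2, small proteins related in sequence to GAGE, were the only members of their families to reach a group mean of 1 TPM. PAGE1 was at 83.41, 77.15 and 57.98 TPM with si-CENPU and at 93.73, 96.23 and 57.01 TPM with si-NC in MHCC-97H, against at most 0.31 TPM in the Huh-7 libraries. XAGE2 was at 82.95, 74.35 and 59.64 TPM with si-CENPU and at 74.01, 85.61 and 60.59 TPM with si-NC, against at most 0.07 TPM in Huh-7. Replicate 3 was the lowest in both MHCC-97H groups, and the si-CENPU and si-NC groups overlapped for both genes. PAGE1 ranked 1030th and XAGE2 1063rd of the protein-coding genes. GAGE12G, GAGE12H, PAGE1 and XAGE2 together made up 86.8% to 94.7% of the sum of the 9 families.

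The MAGEA family, the type I MAGE genes best known as targets of tumour-reactive T cells, had 3 members with a group mean of at least 1 TPM in MHCC-97H. MAGEA1 was at 11.58, 11.56 and 7.17 TPM with si-CENPU and at 14.10, 13.57 and 8.36 TPM with si-NC, and it was listed at 0 in all Huh-7 libraries. MAGEA6 was at 11.61, 10.22 and 7.66 TPM with si-CENPU and at 13.23, 11.30 and 8.49 TPM with si-NC, against at most 0.07 TPM in Huh-7. MAGEA3 was at 2.13, 1.21 and 1.41 TPM with si-CENPU and at 3.20, 1.86 and 1.26 TPM with si-NC. The ranges overlapped for all 3, and every si-CENPU mean was the lower. The coding sequences of MAGEA3 and MAGEA6 are 98.1% identical, so reads can be exchanged between them. MAGEA12, whose coding sequence is 92.5% identical to that of MAGEA6, was listed at 0 in all 12 libraries.

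MAGEB2, a type I MAGE gene of another X-linked block, had the opposite pattern. It was listed at 0 in all 6 MHCC-97H libraries, against 3.15, 2.41 and 2.65 TPM in Huh-7 with si-CENPU and 1.96, 3.37 and 3.08 TPM in Huh-7 with si-NC. The Huh-7 groups overlapped. MAGEA8 was also listed at 0 in MHCC-97H and above 0 in all 6 Huh-7 libraries, at no more than 0.11 TPM. SSX2B, of the SSX family whose members fuse to SS18 in synovial sarcoma, was at 1.78 TPM in Huh-7 si-NC replicate 1 and at 0 in the other 11 libraries.

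CT45A, a family of near-identical X-linked copies of which all pairs are at least 97.7% identical in coding sequence, was at 12.01, 13.94 and 10.44 TPM summed with si-CENPU and at 18.81, 14.03 and 11.02 TPM with si-NC in MHCC-97H. All 9 copies were listed at 0 in every Huh-7 library. CT45A10 was highest, at 3.41, 4.32 and 2.46 TPM with si-CENPU and 5.55, 3.42 and 5.08 TPM with si-NC. CT45A9, CT45A2, CT45A3 and CT45A8 ranged from 0 to 4.38 TPM. The split among the copies changed between libraries, and the family sum overlapped between the groups. No CSAG or MAGEC member reached 1 TPM in any group.

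**Figure D3:**
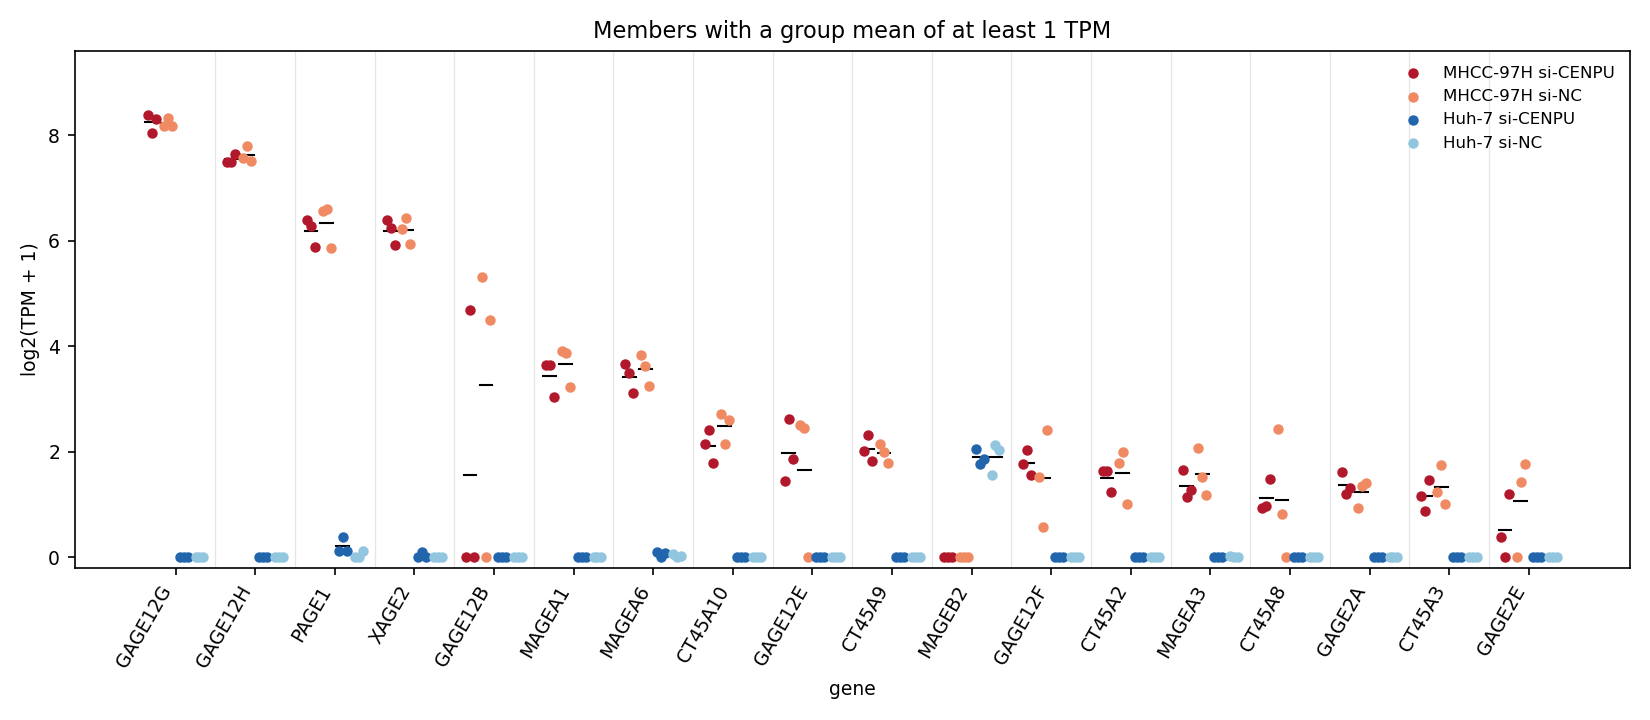
Log2(TPM + 1) (y axis) of the 18 members with a group mean of at least 1 TPM (x axis, ordered by their highest group mean), with 1 point per library and a bar at each group's mean. All but MAGEB2 are near 0 in the 6 Huh-7 libraries, and MAGEB2 is at 0 in the 6 MHCC-97H libraries.

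The line difference was tested with limma on log2(TPM + 1) over all genes with a mean of at least 1 TPM over the 12 libraries, with Benjamini-Hochberg adjustment. Of the 71 members 13 passed this filter. A member that passed only through the line where it is high had to differ, so these calls are given as a description. Between lines under si-NC, 11 of the 13 were called higher in MHCC-97H and 1 lower at an adjusted p below 0.05, against 73% of 11088 genes called, 50.1% higher and 22.9% lower. Under si-CENPU, 11 were called higher and 1 lower, against 70.1% of genes called, 46.2% higher and 23.9% lower. GAGE12B was not called, with adjusted p = 0.0505 between lines under si-NC in limma's test. The median log2 difference of the 13 was 3.27 under si-NC and 2.11 under si-CENPU, beside 0.494 and 0.403 over all genes tested. With trimmed-mean scaling between libraries, the median of all genes under si-NC was 0.0786. The split of all genes then moved to 37% higher and 33.1% lower, and to 39% higher and 32.2% lower with quantile normalization. Of the 12 members that passed the filter under si-NC, 11 were called higher and 1 lower with trimmed-mean scaling, and 10 higher and 1 lower with quantile normalization. Under si-CENPU the split was 35.4% higher and 33% lower with trimmed-mean scaling and 37.8% higher and 32.2% lower with quantile normalization, and 10 of 12 members were called higher and 1 lower with each.

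Without a filter on low values, 46 members could be tested. Under si-NC 17 of them were called higher in MHCC-97H and 2 lower, where 38.2% of 30267 genes were called, 24.6% higher and 13.5% lower. Under si-CENPU 16 were called higher and 2 lower, where 36.1% were called, 22.1% higher and 14% lower. The lower ones were MAGEB2 and MAGEA8 in both comparisons. The libraries of the lines did not overlap for 16 members that were higher and 2 that were lower under si-NC, where 27.4% of genes were higher in all and 15.7% lower in all. Under si-CENPU this held for 19 members that were higher and 2 that were lower, where 27.3% of genes were higher in all and 17.3% lower in all.

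The families, summed so that copies could not exchange reads between them, gave differences on the log2(TPM + 1) scale that understate the change of low genes. GAGE was higher in MHCC-97H by 8.99 with si-CENPU and by 9.04 with si-NC, and both SE were 0.0782. PAGE was higher by 5.89 and 6.31, XAGE by 6.10 and 6.21, MAGEA by 4.29 and 4.47, and CT45A by 3.71 and 3.93, with si-CENPU and with si-NC in that order. MAGEB was lower by 1.88 and 1.87. The limma adjusted p was at most 8.24e-07 for each of the 6 families in both comparisons. Each sum passed the filter only through the line where it is high, so these values are given as a description. The line at or near 0 also adds almost no spread, which lowers the SE. In this fit 73% of 11081 genes and sums were called under si-NC and 70.1% under si-CENPU.

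Chromosome X itself was examined because 70 of the members lie there. Of 771 other protein-coding genes on X, 24 (3.11%) were at 1 TPM or more in MHCC-97H and at most 0.1 TPM in Huh-7, against 377 of 19034 (1.98%) on other chromosomes. Of the 71 members, 16 (22.5%) had that pattern. These count near-identical copies of GAGE, CT45A and the MAGEA3 and MAGEA6 pair singly, so they are not 16 independent genes. The reverse pattern held for 1 member (1.41%), for 18 other X genes (2.33%) and for 501 genes on other chromosomes (2.63%). No test was made of these shares.

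No member passed the test after si-CENPU in either line. In MHCC-97H none of the 13 tested members and none of the families was called, where 0.00902% of the 11088 genes were called. None had an unadjusted limma p below 0.05, where 379 of the 11088 genes did. In Huh-7 none was called either, where 0.00902% of genes were called. There too none had an unadjusted limma p below 0.05, where 507 of the 11088 genes did. At such shares, finding none among 13 members says little about the members. The test of the difference between the responses of the lines called none, where 0.00902% were called. Of the members, only MAGEA2 had 3 si-CENPU libraries outside the range of 3 si-NC libraries in MHCC-97H, at 0, 0.13 and 0.17 TPM against 0.42, 0.22 and 0.18 TPM, where 2.7% of genes were lower in all and 2.09% higher in all. Summed with its near-identical copy MAGEA2B, the level was 0.07, 0.24 and 0.17 TPM with si-CENPU and 0.45, 0.24 and 0.18 TPM with si-NC, and these ranges overlapped. Without a filter on low values the limma adjusted p of MAGEA2 was 0.928. In that fit no member was called in MHCC-97H, in Huh-7 or in the difference of responses, where 0.0231%, 0.0132% and 0.0198% of genes were called. In Huh-7 no member had groups that did not overlap, where 2.31% of genes were lower in all and 2.66% higher in all.

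The intervals say how large a change the data allow in MHCC-97H. GAGE differed by -0.05 on the log2 scale, with a 95% interval of -0.22 to 0.12. GAGE12G differed by 0.02 (-0.20 to 0.24) and GAGE12H by -0.08 (-0.29 to 0.13). PAGE1 differed by -0.15 (-0.60 to 0.29) and XAGE2 by -0.02 (-0.34 to 0.30). MAGEA1 differed by -0.22 (-0.68 to 0.23) and MAGEA6 by -0.15 (-0.53 to 0.23). CT45A differed by -0.23 (-0.61 to 0.15), and CT45A10 by -0.37 (-0.78 to 0.03). GAGE12B differed by -1.71 (-4.74 to 1.32), the widest interval of the 12. These differences moved with single libraries: MAGEA1 was at -0.0174 without si-CENPU replicate 3 and at -0.45 without si-NC replicate 3, the CT45A sum was at -0.0423 without si-NC replicate 1 and at -0.40 without si-NC replicate 3, and GAGE12B was at -3.34 without si-NC replicate 2 and at -0.69 without si-NC replicate 1. MAGEB2 in Huh-7 differed by -0.01 (-0.36 to 0.34). A p that misses the threshold does not show that these levels are alike.

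**Figure D4:**
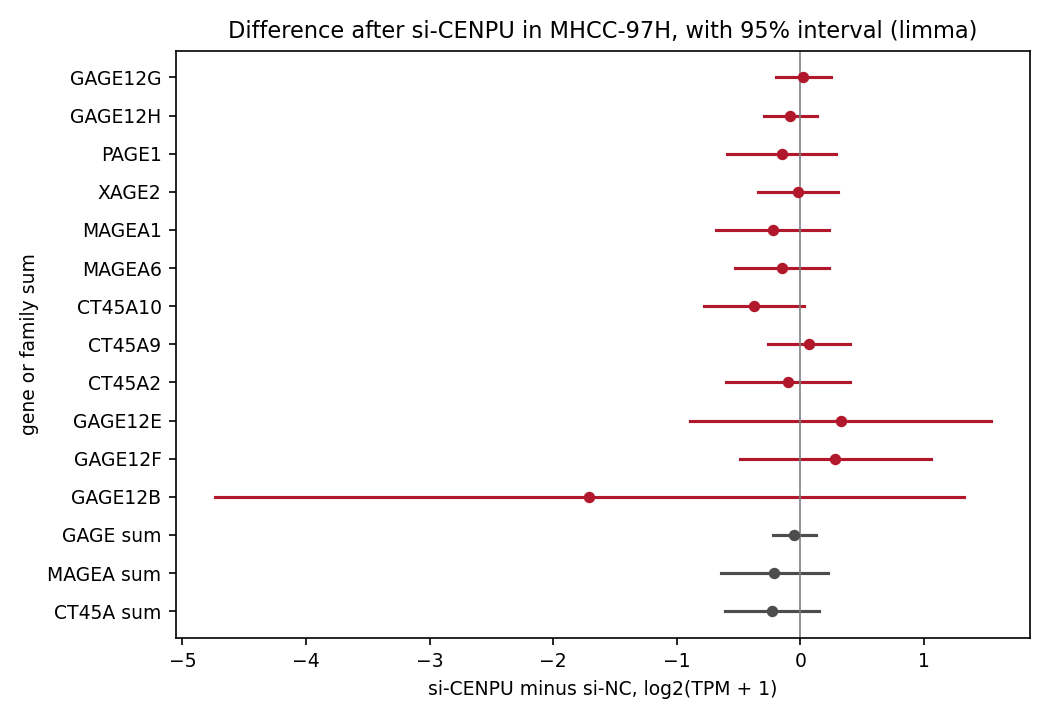
Difference of si-CENPU minus si-NC in MHCC-97H on the log2(TPM + 1) scale (x axis) with its 95% limma interval (lines) from the fit of all 12 libraries, for 12 members in red and 3 family sums in grey (y axis). Every interval spans 0, and those of GAGE12B and GAGE12E are the widest.

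Replicate 3 had the lowest value in both MHCC-97H groups for 6 of 17 members, namely CT45A2, CT45A9, MAGEA1, MAGEA6, PAGE1 and XAGE2. The libraries' levels also moved with GC content. The rank correlation across genes of each library's deviation from its line mean with transcript GC content was 0.0439, 0.0539 and 0.304 in MHCC-97H si-CENPU replicates 1 to 3, and -0.533, -0.24 and 0.475 in si-NC replicates 1 to 3. Replicate 3 was the highest of the 3 in both groups. Its part in the low values was not tested.

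The promoters were described as sequences. Of the members, 59 had a RefSeq promoter and 54 of these started within 5000 bases of the GENCODE 29 start. The 54 had a median of 12 CG dinucleotides in 300 bases, beside 14 over 27305 promoters, and an observed over expected CG ratio of 0.444, beside 0.58. The promoters above held 13 (GAGE12G), 13 (PAGE1), 10 (XAGE2), 19 (MAGEA6), 9 (MAGEA12) and 21 (MAGEB2). The windows of MAGEA6 and MAGEA12 are offset along their like sequence. That of MAGEA6 runs on with further CG dinucleotides where that of MAGEA12 ends. Their counts of 19 and 9 therefore do not compare the same stretch. MAGEA3 and MAGEA6 share an identical promoter, and GAGE12H shares a run of 297 bases with GAGE12G, so copies are not independent points. GAGE12G and PAGE1 share the run gcctcagtgcgcatgttcactggg, which 12 promoters of all hold, 11 of GAGE and PAGE1.

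The ETS core CCGGAA, searched on both strands, was in 4 of 54 member promoters (7.41%), those of CT45A10, MAGEA3, MAGEA6 and MAGEB6, against 17.6% of all. GGAAGT, searched on both strands and able to overlap CCGGAA, was in 17 of 54 (31.5%), against 23.2% of all, and TATAAA was in none, against 12% of all. Among the 9 promoters of members at 1 TPM or more in MHCC-97H, 3 held CCGGAA and none GGAAGT, against 1 and 17 of the 45 others. MAGEA3 and MAGEA6, with identical promoters, are 2 of the 3. The other, CT45A10, has its window at chrX:135893395-135893694 on the minus strand, while its GENCODE gene starts at 135889086. That window may therefore not be the promoter of the measured gene. Of the 9, GAGE12E, GAGE12H and GAGE2A share an identical promoter, and that of GAGE12G is 98% identical to it. Both counts among the 9 thus rest on few distinct sequences. A match is a description of letters in this window and says nothing of binding.

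Related genes, and genes known to act on these families, were taken from lists chosen with results of these data known. Of 9 tested genes of 61 other cancer-testis antigens, 8 were called higher in MHCC-97H under si-NC and none lower. Most of the list was low in both lines. Of the 61, 11 averaged at least 1 TPM in MHCC-97H and 5 in Huh-7, and 27 and 31 were at 0 in all 6 libraries. The calls therefore do not describe the list as a whole. PASD1, a PAS-domain protein, was at 3.89 ± 1.06 TPM in MHCC-97H and listed at 0 in Huh-7 (SD, n = 6). The others called were CT83, OIP5, ATAD2, PBK, CEP55, KIF2C and NUF2. None of these belongs to the 9 families, and a shared cause of the calls was not tested. CT83 lost its call with trimmed-mean scaling (limma adjusted p = 0.184) and with quantile normalization (0.206). PRAME averaged 1.92 ± 0.398 TPM in MHCC-97H and 1.94 ± 0.523 TPM in Huh-7, and was not called (limma adjusted p = 0.866 under si-NC). It was called lower in MHCC-97H under si-NC with trimmed-mean scaling (limma adjusted p = 0.0376) and with quantile normalization (0.0196). Under si-CENPU it was called with neither scaling (0.1893 and 0.1494). Of 18 tested genes of DNA methylation, 14 were called higher and 2 lower. DNMT1, the maintenance methyltransferase, averaged 13.1 ± 2.08 TPM in MHCC-97H and 0.120 ± 0.0666 TPM in Huh-7. As stated above, the near-0 values of DNMT1 and HDAC1 in Huh-7 can be failed estimates. The counts of genes called higher in this list and in the lists below can rest in part on such values. DNMT3L, a cofactor of the de novo methyltransferases, averaged 22.7 ± 1.90 TPM in MHCC-97H and 0.442 ± 0.417 TPM in Huh-7. DNMT3B, a de novo methyltransferase, averaged 1.13 ± 0.223 TPM in MHCC-97H and 2.70 ± 0.492 TPM in Huh-7, and DNMT3A was also lower in MHCC-97H.

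Of 16 tested histone repressors, 13 were called higher and 1 lower, and of 13 tested members of the germline repressor complex PRC1.6, 12 were higher and none lower. Of 16 tested MAGE ubiquitin ligase partners, 11 were higher and 2 lower. TRIM28, the ligase that MAGEA proteins bind, averaged 248 ± 14.3 TPM in MHCC-97H and 150 ± 18.1 TPM in Huh-7. Its call under si-NC was lost with trimmed-mean scaling (limma adjusted p = 0.276) and kept with quantile normalization (7.753e-05). Under si-CENPU it was called higher with both (0.01225 and 5.057e-06). Of 3 tested type II MAGE genes, a class not confined to germ cells, 2 were higher and 1 lower. Of the 11 listed, 7 were at 0 in all 6 MHCC-97H libraries and 6 were at 0 in all 6 Huh-7 libraries. MAGED2 averaged 44.0 ± 8.23 TPM in MHCC-97H and 9.13 ± 1.73 TPM in Huh-7. Of 12 tested ETS factors, 6 were higher and 2 lower, with ELK1 at 72.1 ± 5.78 TPM in MHCC-97H and 10.4 ± 1.04 TPM in Huh-7. ETV4 averaged 29.5 ± 2.51 TPM in MHCC-97H and 75.4 ± 6.88 TPM in Huh-7. These counts are for si-NC, where 50.1% of all genes were higher and 22.9% lower.

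Under si-CENPU, where 46.2% of all genes were higher and 23.9% lower, 6 other cancer-testis antigens were called higher and none lower, with a median log2 difference of 0.939, beside 1.97 under si-NC. The counts under si-CENPU were 13 higher and 2 lower for DNA methylation, 12 and 1 for the histone repressors, 11 and 0 for PRC1.6, 9 and 2 for the ligase partners, 2 and 1 for the type II MAGE genes, and 5 and 2 for the ETS factors. With trimmed-mean scaling, where 37% of all genes were higher and 33.1% lower under si-NC, the counts under si-NC were 7 higher and 1 lower for the other cancer-testis antigens, 10 and 3 for DNA methylation and 11 and 2 for the histone repressors. They were 11 and 1 for PRC1.6, 6 and 4 for the ligase partners, 1 and 1 for the type II MAGE genes and 5 and 5 for the ETS factors. None of the genes of these lists was called after si-CENPU in either line.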

How the data were processed

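RNA from 12 libraries, 3 in each of 4 groups, was sequenced. The deposited values are TPM, which the authors made with HISAT2 and StringTie on GRCh38.p13, per the submitters' processing notes; versions, annotation release and strandedness were not stated there or in the labels. No read counts are used, so depth is unknown and no counting interval is given.

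Genes were named by Ensembl identifier from GENCODE 29. Tests used limma 3.58.1 in R 4.3.3 on log2(TPM + 1) with a trend, all 12 libraries in 1 fit, for genes with a mean of at least 1 TPM, with Benjamini-Hochberg adjustment at 0.05 over all genes of a contrast. The script was tested on simulated data. Family sums replaced their members in a second fit. Named members are those with a group mean of at least 1 TPM in any group, those called and the family sums. GAGE12D, MAGEA12, SSX2B, MAGEA2 and MAGEA2B fall outside this rule in part or in full and were named after their values were seen, as copies, a silent relative or single high values. Of the other lists some of the called genes are named, and PRAME, which was not called, was named after its values were seen. The members and lists were chosen with earlier results of these data known. Near-identical copies were defined by at least 95% identity of coding sequence to another copy of the group, so that members can be joined through other copies, because no protein table was used here. Promoters came from RefSeq GRCh38.p14, and 5 members whose RefSeq and GENCODE starts lie over 5000 bases apart were left out of the promoter counts. Alternatives were other pseudocounts (0.1 and 0.5), no filter, a mean of at least 5 TPM, coding genes only, trimmed-mean and quantile scaling, the samples of the contrast alone, a replicate block, no or robust trend, leaving out each library, and, chosen after seeing the data, a GC correction and combinations with the block.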

Additional observations from a re-analysis of the deposited data

How the results depend on the processing

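No knockdown call of a member or family appeared under any alternative, and the count of families called between lines was 6 in each except a mean of at least 5 TPM, where MAGEB was below the limit and it was 5. The count of members called between lines under si-NC was 19 with no filter, also with the replicate block, and 6 at a mean of at least 5 TPM; under si-CENPU it was 6 at that mean. These follow from how many members are tested. Leaving out each library gave 10 to 13 calls under si-NC and 11 to 13 under si-CENPU, and 6 to 6 family calls and 0 to 0 knockdown calls.

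Several knockdown differences lie so near 0 that their sign turned, all uncalled, and the cause was not tested. In MHCC-97H, XAGE2 was 0.0447 with trimmed-mean scaling, 0.0267 with quantile normalization and 0.0757 with GC correction, the last also with the replicate block. The XAGE sum was 0.0434, 0.0257 and 0.0720 under the same 3 settings. The GAGE sum was 0.0162 with trimmed-mean scaling and 0.0349 with GC correction. CT45A2 was 0.00449 and the MAGEB sum 0.0774 with GC correction. In Huh-7, MAGEA6 was -0.00583 with GC correction, and the MAGEB sum was 0.00361 with a pseudocount of 0.1. The GC correction with replicate block gave the same values.

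Leaving out each library kept the sign of MAGEA1 (-0.446 to -0.0174), the MAGEA sum (-0.42 to -0.0297), the CT45A sum (-0.403 to -0.0423), CT45A10 (-0.54 to -0.21), CT45A2 (-0.39 to -0.10), the GAGE sum (-0.0828 to -0.00568) and GAGE12B (-3.34 to -0.69) in MHCC-97H, but moved their size. The sign turned within these ranges in MHCC-97H: PAGE1 and the PAGE sum -0.39 to 0.0013, XAGE2 -0.15 to 0.11, the XAGE sum -0.15 to 0.11, MAGEA6 -0.31 to 0.0063, GAGE12G -0.0483 to 0.12, GAGE12H -0.14 to 0.0016, GAGE12E -0.50 to 0.75, GAGE12F -0.18 to 0.40, CT45A9 -0.0612 to 0.18 and the MAGEB sum -0.0422 to 0.0021. In Huh-7 they were MAGEB2 -0.18 to 0.10, the MAGEA sum -0.0526 to 0.0208 and the MAGEB sum -0.18 to 0.11.

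Between lines under si-NC, GAGE12E lost its call in limma's test with the samples of the contrast alone (adjusted p = 0.0645) and without MHCC-97H si-NC replicate 1 (0.0818) or 2 (0.0794). GAGE12B gained one with coding genes only (adjusted p = 0.0372), under trimmed-mean scaling (0.0493), and when replicate 2 of either MHCC-97H group was left out (0.00305 for si-NC, 0.0176 for si-CENPU). Whether the replicate numbers pair the libraries is not known from the labels. Same-numbered deviations correlated at -0.0326, -0.0914 and 0.134 in MHCC-97H and at -0.0324, -0.0907 and 0.0284 in Huh-7. Different-numbered ones ranged from -0.116 to 0.157 in MHCC-97H and from -0.104 to 0.139 in Huh-7. These few values cannot decide whether same-numbered libraries share a source of spread. Under the replicate block 0 members were called after si-CENPU and 12 between lines. Trimmed-mean scaling moves the median of all genes between lines under si-NC to 0.0786, from 0.494 unscaled.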

Other observations

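MAGEA3-DT, a transcript that is divergent from MAGEA3 by its name and that the rule does not take, was at 4.69, 4.47 and 4.73 TPM in MHCC-97H with si-CENPU and at 4.64, 6.48 and 3.82 TPM in MHCC-97H with si-NC. It was at 0.12, 0 and 0 TPM in Huh-7 with si-CENPU and at 0 in all 3 libraries of Huh-7 with si-NC.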
